A study of Homo sapiens with 3 samples.

Results

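Transcripts of 9 chemokine genes were measured in KYSE140, an established human cell line from an esophageal squamous cell carcinoma: CXCL1, CXCL2, CXCL3, CXCL5, CXCL8, CXCL16, CCL2, CCL20 and CCL26. They were picked by gene symbol, as chemokines made by squamous carcinoma cells, and are 9 of 17219 genes with a value in the table. The cells, grown in RPMI1640 with fetal bovine serum, carried either a negative control or siRNA1 or siRNA2 against DLX5, a homeobox transcription factor. There was 1 control sample and 1 sample for each siRNA, and all came from the same line. The labels used here do not give the sequence of the siRNAs or of the control, or the time after transfection. Expression is in FPKM, fragments scaled to transcript length and to the library's total. Each sample had 2 replicate columns, whose mean was used as its value, and an SD is the spread over those 2 columns, which may be technical.

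Chemokines are small secreted proteins that guide leukocytes through G protein-coupled receptors. CXC chemokines with a glutamate-leucine-arginine motif, which are CXCL1, CXCL2, CXCL3, CXCL5 and CXCL8 here, attract neutrophils through CXCR2, and CXCL8 also uses CXCR1. CXCL16 is a membrane-bound ligand of CXCR6, CCL2 draws monocytes through CCR2, CCL20 draws CCR6-bearing dendritic cells and T cells, and CCL26 (eotaxin-3) draws eosinophils through CCR3. Many of these genes are induced in epithelium by interleukin-1 and tumor necrosis factor through NF-kB, and CCL26 by interleukin-4 and interleukin-13 through STAT6.

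CXCL8, CCL20 and CCL26 fell in the DLX5 siRNA samples, and none of the 9 genes rose past the test. Given siRNA1 first and siRNA2 second, the FPKM ratio was 2.02-fold and 2.26-fold lower for CXCL8, 2.42-fold and 2.99-fold for CCL26, and 9.31-fold and 5.75-fold for CCL20. CXCL1, the most abundant of the 9, read 50.3 FPKM in the control against 44.7 and 52.9. Of the 9 genes, 6 had at least 1 FPKM in some sample and were tested, and 3 of these 6 fell (limma, Benjamini-Hochberg adjusted p under 0.05), where 1.67% of all 12078 tested genes were called lower and 1.42% higher. The other 3, CXCL2, CXCL5 and CCL2, were too low to be tested. CCL20 reached 1 FPKM in the control alone, at 2.56 FPKM against 0.275 and 0.445. A gene let in that way can only be called lower. For the 6 tested chemokines the median log2 change came to -0.70 (siRNA1) and -0.72 (siRNA2), against 0.03 and 0.01 over all tested genes. CCL20 is counted in this median and, let in by the control, could only add a fall. Without CCL20 the medians would be the values of CXCL16, at -0.42 (siRNA1) and -0.31 (siRNA2). None of the 3 passed when low genes were kept in (limma, adjusted p = 0.320 for each) and with quantile normalization (adjusted p from 0.0579 to 0.0680), with log2 fold changes between -1.06 and -1.39 in both settings. The test rests on 1 control sample assumed to vary like the siRNA samples.

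**Figure D1:**
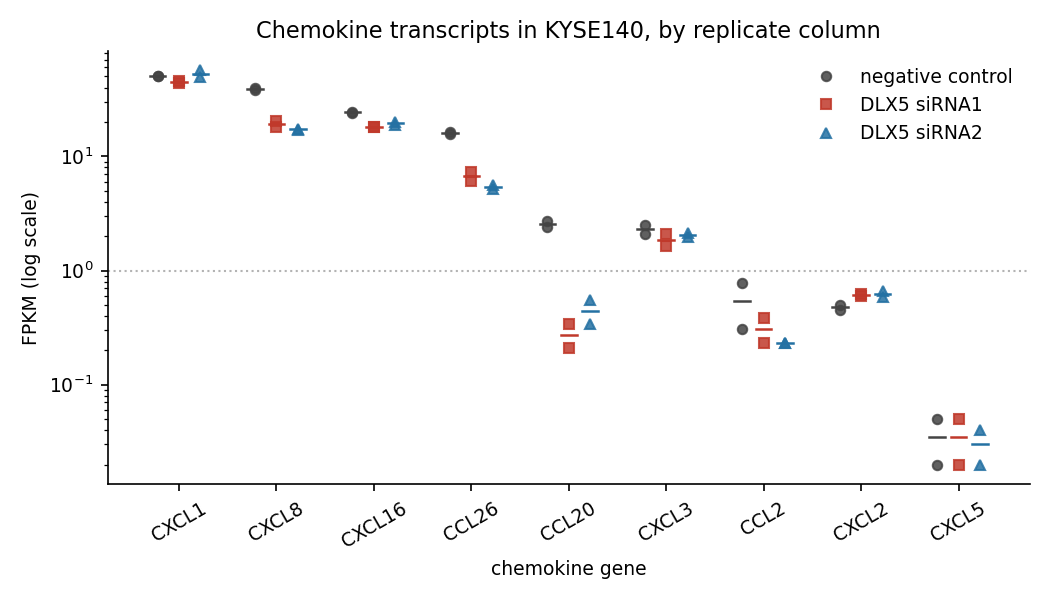
FPKM of the 9 chemokine genes on a log scale, with 1 point per replicate column and a bar at each sample's mean; the dotted line marks 1 FPKM. For CXCL8, CXCL16, CCL26 and CCL20 all 4 siRNA columns lie below both control columns, as they do for 26.8% of all tested genes. The siRNA columns of CXCL1 range from 43.5 to 56.4 around the control's 50.04 and 50.6.

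The targeted gene was lower in both knockdown samples: DLX5 read 13 FPKM in the control against 3.63 and 3.25 (limma, adjusted p = 0.0210). From the spacing of low FPKM values, depth was put at between 17150000 and 17900000 reads for each replicate column. At these depths 85.6% to 95.6% of those values fell within 0.2 of a whole read. Each depth was chosen to make this share largest, so the share is no separate check. Its median over the depths tried was 26.3% to 33.6%. Squamous markers were present, all 11 of 11 at 1 FPKM or more in the control. Of these 11, 4 fell and 1 rose (limma), against 1.67% and 1.42% of all tested genes. The 11 summed to 10227 FPKM in the control against 4422 and 4353. The 4 that fell were the keratins KRT5, KRT17, KRT6A and KRT14, and the first 3 held most of the control sum. PERP rose, from 96.4 FPKM to 237 and 229. TP63 read 92.1, 90.6 and 79.4 FPKM and SOX2 212, 272 and 277, and neither passed. Leukocyte markers summed to 11.0 FPKM in the control against 7.19 and 7.17, and 3 of 10 were listed at 0 or without a value there, CD3E and MS4A1 among them. Most of that difference lay in CD68, a lysosomal protein abundant in macrophages, at 6.27 FPKM against 2.93 and 3.37 (limma, adjusted p = 0.0787), while PTPRC, the pan-leukocyte antigen, read 1.195, 1.17 and 0.88 FPKM. Fibroblast markers summed to 25.1 FPKM against 16.4 and 14.9, nearly all from COL1A1 and THY1, with LUM listed at 0 and DCN at 0.005 in the control. Endothelial markers summed to 0.59 FPKM against 0.425 and 0.32, and the retinal markers, listed because the series' design text speaks of retina, to 1.5 against 1.85 and 1.67. All samples came from the KYSE140 line, and bulk RNA does not show which cells made these transcripts. The part of the leukocyte and fibroblast markers in the chemokine result was not tested.

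The neutrophil-attracting chemokines share a gene cluster, and 5 of the 9 genes lie in it, on chromosome 4 between 74606223 and 74964997 (hg19, as in the table). To show what these genes have in common before the knockdown, their upstream sequence was taken from RefSeq on GRCh38.p14, which held 7 of the 9 genes; CXCL16 and CCL2 had no entry. All 5 clustered genes carry the NF-kB core GGAATTTCC within 91 bases of the start, a word found in 162 of 35116 promoter windows of the same length (0.461%, both strands, 250 bases before to 50 after the start). The stretches around it are given in lower case with the core in capitals, on the gene's own strand.

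CXCL1, chr4:73869295-73869343, plus strand: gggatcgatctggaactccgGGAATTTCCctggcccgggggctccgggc

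CXCL2, chr4:74099244-74099292, minus strand: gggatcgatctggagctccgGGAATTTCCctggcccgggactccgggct

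CXCL3, chr4:74038739-74038787, minus strand: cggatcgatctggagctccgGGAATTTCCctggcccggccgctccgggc

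CXCL5, chr4:73998739-73998787, minus strand: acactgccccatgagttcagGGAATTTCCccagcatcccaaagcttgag

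CXCL8, chr4:73740458-73740506, plus strand: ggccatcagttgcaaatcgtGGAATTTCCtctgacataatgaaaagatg

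Around the shared core, 45 of 49 bases match between CXCL1 and CXCL3 and 41 of 49 between CXCL1 and CXCL2, whereas 22 of 49 match between CXCL1 and CXCL8. The promoters of CXCL8 and CCL20, which fell, and of CXCL1, which did not pass, are shown at greater length for comparison. They run from 250 bases before the start to the base before it. Capitals mark the NF-kB core, the AP-1 word TGACTCA, the ETS word AGGAAGT and the TATA word TATAAA, on either strand.

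CXCL8, chr4:73740319-73740568, plus strand: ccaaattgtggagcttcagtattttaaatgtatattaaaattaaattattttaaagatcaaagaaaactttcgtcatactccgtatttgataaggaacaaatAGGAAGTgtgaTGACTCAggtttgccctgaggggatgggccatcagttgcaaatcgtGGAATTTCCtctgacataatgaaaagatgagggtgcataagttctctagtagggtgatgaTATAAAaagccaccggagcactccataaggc

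CCL20, chr2:227813592-227813841, plus strand: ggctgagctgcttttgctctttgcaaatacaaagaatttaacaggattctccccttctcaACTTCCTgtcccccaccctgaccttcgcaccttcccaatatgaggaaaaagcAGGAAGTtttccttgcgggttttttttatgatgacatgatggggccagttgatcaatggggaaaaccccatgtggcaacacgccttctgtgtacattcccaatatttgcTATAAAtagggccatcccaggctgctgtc

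CXCL1, chr4:73869143-73869392, plus strand: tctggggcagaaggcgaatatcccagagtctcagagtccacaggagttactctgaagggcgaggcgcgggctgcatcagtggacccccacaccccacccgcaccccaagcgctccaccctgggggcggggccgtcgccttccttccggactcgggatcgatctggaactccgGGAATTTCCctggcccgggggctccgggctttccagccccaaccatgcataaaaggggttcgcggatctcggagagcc

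CXCL8 holds each of the 4 words once, with the AP-1 word 137 bases and the ETS word 148 bases before the start. CCL20 holds the ETS word at 138 bases and, on the other strand, at 190 bases before the start, and a TATA word at 29 bases. CXCL1 holds the NF-kB core alone of the 4. None of the 7 windows holds the homeobox word TAATTA or the STAT6 word (TTC and GAA with 4 bases between), and CCL26 holds none of the 6 words searched. Of all promoter windows, 4.95% hold the AP-1 word, 8.24% the ETS word, 11.5% the TATA word, 6.44% the STAT6 word and 4.84% the homeobox word. A match is a description of the letters and no measure of binding. Only the words as written were searched, so a promoter without one, such as CCL20 for NF-kB, may hold a variant of it. A single start per gene was searched, so any other start of CCL26 or the other genes was not covered.

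CXCL8, or interleukin-8 (Entrez gene 3576, chromosome 4, 74606223 to 74609433, plus strand), averaged 38.9 ± 0.651 FPKM without knockdown, 19.2 ± 1.90 with siRNA1 and 17.2 ± 0.304 with siRNA2 (SD, 2 replicate columns). The replicate columns read 38.4 and 39.4 in the control, 20.6 and 17.9 with siRNA1, and 17.4 and 16.97 with siRNA2. All siRNA columns were thus at about the same level and well under the control, with no overlap. Its log2 fold change was -1.06 ± 0.16 (SE; limma on log2(FPKM + 1), adjusted p = 0.0345). About 2274 reads in the control and 1137 and 1032 with the siRNAs lay behind these values, so counting error was small.

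CXCL1, the melanoma growth-stimulating chemokine (Entrez gene 2919, chromosome 4, 74735109 to 74737019, plus strand), read 50.6 and 50.04 FPKM in the control columns, 46.0 and 43.5 with siRNA1, and 49.5 and 56.4 with siRNA2. The siRNA1 columns lay below the control and the siRNA2 columns on either side of it. Its log2 change was -0.17 for siRNA1 and 0.07 for siRNA2, and -0.05 ± 0.17 (SE) together (limma, adjusted p = 0.908). With 1 sample per siRNA, the difference between the siRNAs has no replicate check. The ratio of CXCL1 to CXCL8, both per length in FPKM, was 1.29 in the control, 2.33 with siRNA1 and 3.08 with siRNA2. The 3 genes whose changes with both siRNAs were most like those of CXCL1 were ANKRD36, UBE2H and VRK2, at distances of 0.00558 to 0.00658 on the log2 scale over 3 samples. Of 11800 genes compared, 418 lay within 0.1 of CXCL1.

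CXCL3, a close relative of CXCL1 (Entrez gene 2921, chromosome 4, 74902306 to 74904490, minus strand), read 2.29 ± 0.283 FPKM in the control, 1.86 ± 0.311 with siRNA1 and 2.04 ± 0.120 with siRNA2. Its columns overlapped between control and siRNA samples, and it did not pass the test (log2 fold change -0.16 ± 0.17, limma, adjusted p = 0.675). CXCL2 (Entrez gene 2920, chromosome 4, 74962752 to 74964997, minus strand) was lower still, with 0.50 and 0.45 FPKM in the control columns, 0.60 and 0.62 with siRNA1, and 0.59 and 0.66 with siRNA2. Every siRNA column of CXCL2 was above both control columns, but these are about 20 reads against 26 and 26 over the 2 columns, and the gene was under the filter. CXCL5 (Entrez gene 6374, chromosome 4, 74861359 to 74864446, minus strand) read 0.035, 0.035 and 0.030 FPKM, or about 3 reads in each sample.

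CXCL1, CXCL2 and CXCL3 are near copies, and their reads can be split between them. The longest stretch shared by their longest coding transcripts (GENCODE v29, used for sequence only) was 97 bases for CXCL2 and CXCL3, 77 for CXCL1 and CXCL2, and 55 for CXCL1 and CXCL3. Of stretches of 50 bases in CXCL2, 5.13% occur in CXCL1, which had a far higher FPKM, and 4.62% in CXCL3. The low levels of CXCL2 and CXCL3 are uncertain to that extent, while CXCL8 and CXCL5 share no such stretch with them.

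CXCL16 (Entrez gene 58191, chromosome 17, 4636824 to 4643223, minus strand) is made as a membrane protein that ADAM10 and ADAM17 can release. It read 24.6 and 24.1 FPKM in the control columns, 18.0 and 18.1 with siRNA1, and 19.0 and 20.1 with siRNA2. All siRNA columns were below the control, at 74.0% and 80.0% of its level. The log2 fold change of -0.36 ± 0.16 did not pass (limma, adjusted p = 0.295). With replicate columns as separate values, whose spread is within samples only, it did (adjusted p = 4.08e-05), as did 4 of the 6 tested chemokines, where 29.7% of all tested genes were called lower. The authors' deposited table gives CXCL16 log2 fold changes of -0.46 and -0.36 with q-values of 3.45e-19 and 1.10e-12. Of the 6 tested chemokines, 4 had all siRNA columns below both control columns, as did 26.8% of all tested genes.

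CCL20 (Entrez gene 6364, chromosome 2, 228678558 to 228682280, plus strand) read 2.70 and 2.42 FPKM in the control columns, 0.34 and 0.21 with siRNA1, and 0.34 and 0.55 with siRNA2. The control stood clear of the siRNA columns, which overlapped each other. Its log2 fold change of -1.39 ± 0.18 (limma, adjusted p = 0.0237) is on the log2(FPKM + 1) scale, which understates low genes, and was -2.56 with a pseudocount of 0.1. About 74 reads in the control compare with 8 and 13 with the siRNAs, so the difference between 9.31-fold and 5.75-fold rests on few reads. CCL20 ranked 67 of 12078 tested genes from the lowest log2 fold change, CCL26 ranked 100 and CXCL8 ranked 192.

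CCL26 (Entrez gene 10344, chromosome 7, 75398842 to 75419064, minus strand) stood at 16.1 ± 0.509 FPKM in the control, 6.67 ± 0.898 with siRNA1 and 5.39 ± 0.283 with siRNA2. Its siRNA columns, from 5.19 to 7.30, lay well under the control columns of 15.8 and 16.5. It fell by 1.29 ± 0.19 on the log2 scale (SE; limma, adjusted p = 0.0315).

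CCL2 (Entrez gene 6347, chromosome 17, 32582296 to 32584222, plus strand), also called MCP-1, read 0.78 and 0.31 FPKM in the control columns, 0.38 and 0.23 with siRNA1, and 0.23 in both columns with siRNA2. The columns overlapped, and about 14, 8 and 6 reads per sample leave no difference detectable at this depth.

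**Figure D2:**
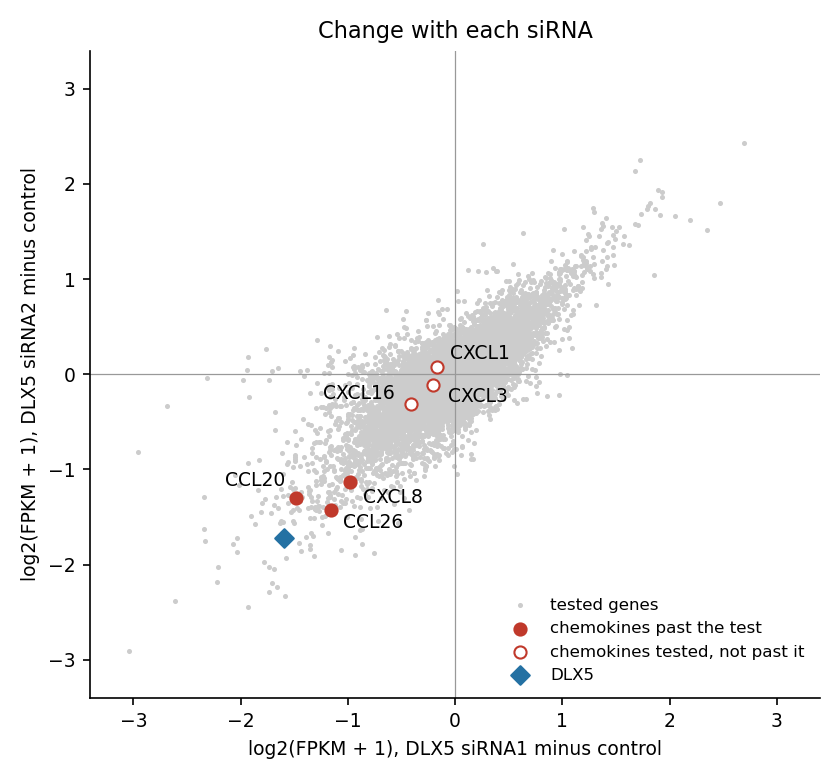
Change of log2(FPKM + 1) with siRNA1 (x axis) and with siRNA2 (y axis) against the control for 12078 tested genes; red points are the 6 tested chemokines, filled where past the test, and the diamond is DLX5. CXCL8, CCL26 and CCL20 lie near or below -1 on both axes, while CXCL1, CXCL3 and CXCL16 lie within 0.42 of 0; both axes use the same control sample.

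Summed over the 9 genes, chemokine FPKM was 136 in the control, 91.8 with siRNA1 and 98.4 with siRNA2. CXCL8 made up 28.7% of that sum in the control and 21.0% and 17.5% with the siRNAs, and CXCL1 37.1%, 48.8% and 53.8%. From the highest to the lowest control level the order was CXCL1, CXCL8, CXCL16, CCL26, CCL20, CXCL3, CCL2, CXCL2 and CXCL5, in FPKM. Among neighbors in this order, CCL20 and CXCL3 overlapped in their control columns, as did CCL2 and CXCL2. In the siRNA samples CXCL8 and CXCL16 stood close together, at 19.2 and 18.0 FPKM with siRNA1 and 17.2 and 19.5 with siRNA2.

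A further 23 chemokine ligands had a value, and 7 of them were tested. None of the 7 passed (limma; 2 at an unadjusted p under 0.05, where 19.5% of all tested genes, 2359 of 12078, were), and their medians on the log2 scale were 0.07 and 0.05 for siRNA1 and siRNA2. Those 2 are named after their values were seen. CXCL14, a chemokine of resting squamous epithelium and the most abundant ligand of all, read 162 FPKM in both control columns, 360 and 325 with siRNA1, and 246 and 253 with siRNA2. Its siRNA columns were all above the control, at a log2 fold change of 0.85 ± 0.20 (adjusted p = 0.0891). CCL5 read 8.17 and 7.36 FPKM, 3.33 and 7.24, and 5.78 and 5.42, with siRNA1 columns far apart (adjusted p = 0.236). CCL22 and CXCL13, at 0.935 and 0.905 FPKM in the control, reached 1 FPKM only in a siRNA sample. The medians of the 7 were the values of CCL22, so they lean higher by the filter. CXCL14 held 47.4% of the summed FPKM of all 32 ligands in the control, 72.5% with siRNA1 and 63.4% with siRNA2. The interferon-induced ligands CXCL10 and CXCL11 averaged 0.07 FPKM or less in every sample, and CXCL9 had no value.

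**Figure D3:**
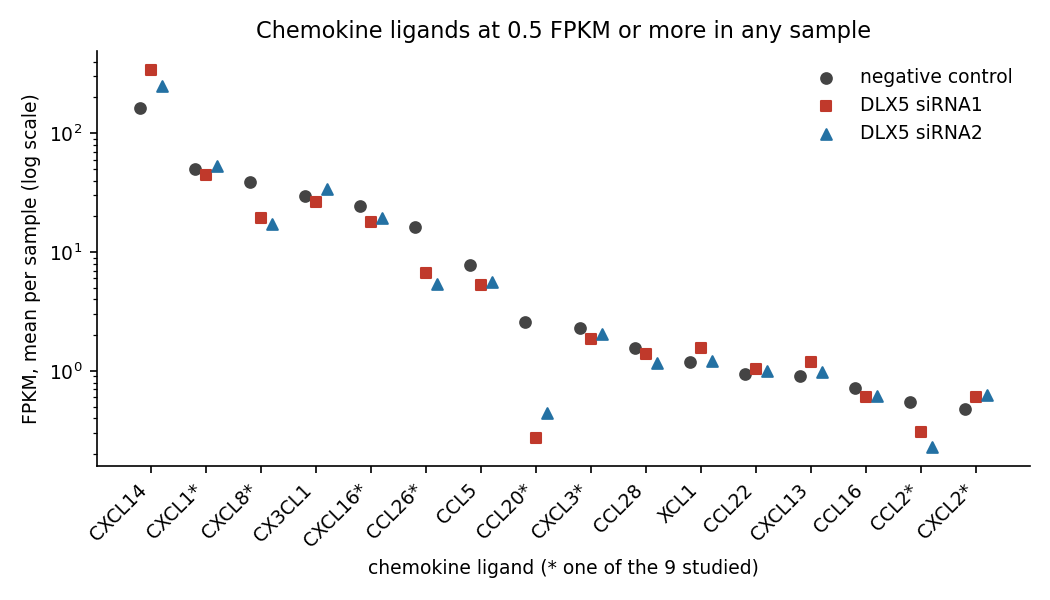
Mean FPKM per sample, on a log scale, of the chemokine ligands that reached 0.5 FPKM in any sample, ordered by the control; asterisks mark genes among the 9 studied. CXCL14 is highest in all 3 samples and higher with both siRNAs, while CCL20 drops from 2.56 to 0.275 and 0.445.

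Receptors for these ligands were low. Of 23 chemokine receptors 12 had a value and only CXCR4, the receptor of CXCL12, was tested, at 5.07, 6.07 and 4.81 FPKM (limma, adjusted p = 0.874). CXCR2, the receptor of the neutrophil-attracting group, read 0.575, 0.485 and 0.530 FPKM. CCR6, the receptor of CCL20, read 0.505, 0.615 and 0.595, and CXCR6, the receptor of CXCL16, 0.105, 0.090 and 0.060. CXCR1, CCR2 and CCR3 had no value in any sample.

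Several genes upstream and downstream of NF-kB passed the test as well. Of 15 tested genes of interleukin-1 and tumor necrosis factor input 3 fell and none rose past the test. Over all tested genes 1.67% were called lower and 1.42% higher. An unadjusted p under 0.05 (limma) was seen for 8 of the 15, against 19.5% of all tested genes. The list medians were -0.59 for siRNA1 and -0.58 for siRNA2. IL1A, an epithelial alarmin, went from 3.98 FPKM to 1.07 and 0.84 (adjusted p = 0.0248), IL1B fell by 1.68 on the log2 scale, and IL1RN, the antagonist of their receptor, fell by 1.95. Of 20 NF-kB subunits and feedback genes 3 fell and 1 rose, with medians of -0.15 and -0.21, and 6 had an unadjusted p under 0.05 (limma). NFKBIA, the inhibitor that NF-kB itself induces, fell from 167 FPKM to 91.7 and 71.8 (adjusted p = 0.0425), BIRC3 from 5.95 to 1.04 and 1.81 (adjusted p = 0.0335), and TRAF1 by 1.44 on the log2 scale. NFKBIB, another inhibitor of NF-kB, rose from 24.4 FPKM to 51.6 and 54.3 (limma, adjusted p = 0.0260). The subunits NFKB1, NFKB2, REL, RELA and RELB did not pass (adjusted p from 0.380 to 0.820). Among the called genes, IL1B, IL1RN and TRAF1 reached 1 FPKM in the control alone, so they could only be called lower. LTB and IL1R2, which were not called, were let in the same way. The medians of the interleukin-1 and tumor necrosis factor list were the values of IL1R2. Those medians and the count of 8 of the 15 thus lean lower by the filter.

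Of 8 tested genes of the interleukin-17 response, which induces CCL20 in epithelium, 1 fell, where 1.67% of all tested genes did. The list medians were -0.66 and -0.46, and 4 of the 8 had an unadjusted p under 0.05 (limma). The gene that fell was ZC3H12A, also counted among genes of AU-rich mRNA decay, an RNase that degrades cytokine mRNA. It fell from 9.86 FPKM to 4.45 and 4.61 (limma, adjusted p = 0.0448). It was the 1 call among 12 mRNA decay genes (medians of -0.26 and -0.11), of which 4 had an unadjusted p under 0.05 (limma). Of 9 tested genes of interleukin-4 and interleukin-13 signaling none passed (limma; 2 at an unadjusted p under 0.05, against 19.5% of all tested genes), with medians of -0.21 and -0.12. Those 2, named after their values were seen, were IL4R, the receptor chain upstream of STAT6, at 16.2 FPKM against 7.33 and 9.85 (adjusted p = 0.0980), and SOCS1, a feedback inhibitor of JAK kinases, at 5.7 against 2.57 and 3.22 (adjusted p = 0.0953). STAT6 read 29.8, 31.1 and 27.96. Of 5 tested genes of CXCL16 shedding none passed (limma; 2 at an unadjusted p under 0.05, against 19.5% of all tested genes). Those 2, named after their values were seen, were TIMP3, an inhibitor of metalloproteases, at 26.2, 8.26 and 13.3 FPKM (adjusted p = 0.0764) and ADAM17 at 28.2, 16.0 and 22.2 (adjusted p = 0.243). ADAM10 read 25.9, 24.1 and 26.1 FPKM. Of 11 other genes within 500 kb of the chemokine cluster on chromosome 4, 5 were tested and none passed (limma; 2 at an unadjusted p under 0.05, against 19.5% of all tested genes). Those 2, named after their values were seen, were RASSF6 at 1.6, 0.775 and 0.765 FPKM and ANKRD17 at 20.3, 14.5 and 14.9. RASSF6 reached 1 FPKM in the control alone, so it could only read lower. The growth factor AREG read 125, 96.7 and 115 FPKM there, and the list medians were -0.45 and -0.12.

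**Figure D4:**
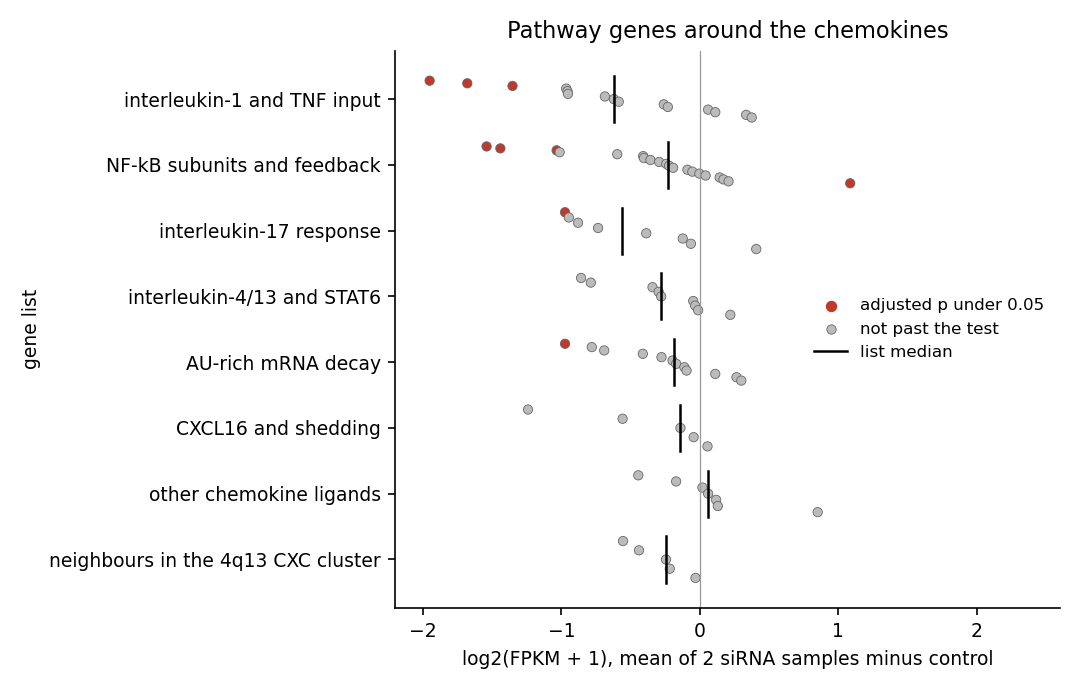
Log2 fold change of tested genes in 8 lists around the chemokines, as the mean of 2 siRNA samples minus the control on the log2(FPKM + 1) scale; red points passed the test and black bars are list medians. The calls lie in the interleukin-1, NF-kB, interleukin-17 and mRNA decay lists, with ZC3H12A shown in the last 2 of these.

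AU-rich words in an mRNA mark it for rapid decay, and the neutrophil-attracting genes carry many. The word TATTTAT occurs 4 times in the longest coding transcript of CXCL1, 8 times in CXCL2, 3 times in CXCL3, 3 times in CXCL5 and 4 times in CXCL8. It occurs once in CCL20 and is absent from CXCL16, CCL2 and CCL26. Counted over the whole transcript, its density per kilobase was 1.19 in CCL20, 1.18 in CXCL5 and 2.35 in CXCL8. Of 11817 tested genes with a transcript, 39.4% hold it at least once, and 0.161% hold it at the density of CXCL8 or more. Of the called genes, CXCL8 and CCL20 hold the word and CCL26 has none. Among those that did not pass, CXCL1 and CXCL3 hold it at 3.65 and 2.79 per kilobase, and CXCL16 has none. A link between the word and the changes was not tested.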

How the data were processed

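RNA was sequenced from 1 control and 2 DLX5 siRNA samples. The authors deposited 1 table of FPKM per gene, with 2 replicate columns and their mean per sample, per the file headers. It also holds the authors' log2 fold changes, p-values and DEGseq q-values, per the file headers. Per the submitters' processing notes the tools were RSEM 1.2.12, HISAT2 2.0.4, DESeq 3.4 and Bowtie2 2.2.5, on hg19, with no roles given. The library's strand setting: not given in the sources used here.

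The table's 19280 lines included 14 lacking a gene ID and 2047 genes with no value, which were left out. The 2 columns under a shared heading were not used; replicate column 1 of each siRNA sample was taken as 2 times the mean minus column 2. limma 3.58.1 (R 4.3.3) with a trend was fitted to log2(FPKM + 1) for 12078 genes with at least 1 FPKM in any sample, the fallback for FPKM in place of a count test. Prior degrees of freedom were 5.16 beside 1 residual. On 20 simulated sets of 12078 genes with 200 changed, 47.2% of log2 changes of 1 and 98.6% of 2 were found, with 8.29% false calls. The changed genes were drawn from those with a mean log2(FPKM + 1) above 2, a level that CCL20 and CXCL3 do not reach. The simulated control had the same spread as the siRNA samples. The computed p-values rest on how far the 2 siRNA samples differ, possibly for technical reasons. Estimated reads are FPKM times the longest transcript length and the fitted depth.

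The members and gene lists were chosen with earlier results of these data known. Named genes are the 9 chemokines, DLX5, up to 4 called genes per list and the 3 genes nearest to the most abundant chemokine; others are marked or stand as list members or receptors of the ligands described. Alternatives covered the pseudocount, filters, scaling, replicate columns, the threshold and leaving out each siRNA sample.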

Additional observations from a re-analysis of the deposited data

How the results depend on the processing

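The count of chemokines past the test stayed at 3 with a pseudocount of 0.1, a filter on the mean of at least 1 FPKM, median centring and an adjusted p under 0.10. It was 4 with replicate columns as separate values. It was 0 without the filter (limma; 4 of 9 at an unadjusted p under 0.05) and 0 with quantile normalization (3 of 6). For all genes, 373 passed; the count was 0 without the filter (2444 at an unadjusted p under 0.05), 22 with quantile normalization, 833 at an adjusted p under 0.10 and 7524 with replicate columns as separate values; the cause was not tested. Without the filter, 17219 genes were tested. No tested chemokine changed the sign of its log2 fold change under the pseudocount, filter, scaling and replicate column settings. CXCL1 lay on either side of 0 with the 2 siRNAs. With either siRNA sample left out no residual degree of freedom is left, so only values could be had: CXCL8 was then at -1.13 or -0.98, CCL26 at -1.42 or -1.16 and CCL20 at -1.30 or -1.48. No paired analysis was possible because the control is a single sample, so the groups share fewer than 2 sample numbers. Depth limits CCL2, CXCL2 and CXCL5, at 26 estimated reads or fewer per sample.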
